A study of Mus musculus with 14 samples.

Results

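Dual-specificity MAP kinase phosphatases and the Sprouty and Spred proteins are the built-in brakes of the MAP kinase cascades, and their transcripts were followed here in mouse macrophages given supernatants of mast cells. The 9 genes were chosen by name as inducible feedback regulators of the ERK, p38 and JNK pathways: the nuclear phosphatases Dusp1, Dusp2, Dusp4 and Dusp5, the cytoplasmic ERK phosphatase Dusp6, the Sprouty genes Spry1 and Spry2, and the Sprouty-related genes Spred1 and Spred2. They were chosen with earlier results of these data known, as were the gene lists and tests used below. They are 9 of the 47937 genes in the table, and all 9 had enough counts to be among the 13061 genes tested. RNA was sequenced in 14 libraries of bone marrow-derived macrophages, macrophages grown from bone marrow precursors, all labelled wild type. The cells were untreated (n = 6), or were given mast cell supernatant (n = 5) or mast cell intracellular trap supernatant (n = 3) for 3.5 h. Each library belongs to 1 of 3 batches in the labels, and what the batches are is not stated there. How the supernatants were prepared is not given in the sources used here.

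In a MAP kinase cascade, a receptor signal passes through a chain of kinases to ERK, p38 or JNK, which are active only while a threonine and a tyrosine in their activation loop are both phosphorylated. The DUSP phosphatases remove both phosphates, and several are themselves immediate-early or delayed-early genes switched on by the kinases they silence. Sprouty and Spred proteins act further upstream, between growth factor receptors, Ras and Raf. In macrophages, Dusp1 is known as the phosphatase that ends p38 and JNK signalling after inflammatory stimuli and so limits cytokine production.

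Total counts ran from 11729073 to 22720419 per library. Of the 5 pairs of libraries that share a group and a batch, untreated replicates 3 and 6 of batch 3 differed most, with a chi-square per degree of freedom of 15.2 against 1.82 to 5.47 in the other 4 pairs. For the 9 genes, batch 3 results that change their call without either of them are therefore given without it. Whether replicates are separate cultures or animals is not stated in the labels. The p-values therefore reflect only how much these libraries vary, which may be technical variation. In bulk RNA, fewer cells with a transcript and less of it per cell cannot be told apart.

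The batches differed in markers of cell type. Lyz2, the lysozyme gene by which macrophages and neutrophils are commonly marked, had 1 or 2 counts in each of the 5 libraries of batch 3, in all 3 groups, and 68853 to 224532 counts in each of the other 9 libraries. That goes against 1 common background for libraries that all carry the same genotype label, and its part in the results was not tested. The other 8 macrophage markers summed to 8057 to 8573 CPM in batch 1, 6528 to 7010 in batch 2 and 8511 to 9502 in batch 3 (CPM, counts per 1e6 counts of a library, scaled between libraries by TMM). The 11 neutrophil markers summed to 129 to 191 CPM in batch 1, 74.0 to 111 in batch 2 and 282 to 327 in batch 3. The 6 fibroblast markers summed to 139 to 163 CPM in batch 2 and 8.44 to 29.5 in the other batches. Because of Lyz2, results that rest on batch 3 are also given from batches 1 and 2, an alternative chosen after the data were seen.

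Among these genes, the stretches upstream of the start sites differ in the short motifs through which signal-activated factors are known to act. Sequence of the 250 bases before the start was found in RefSeq's promoter table (GRCm38.p6) for 8 of the 9 genes. Both strands were searched for the cAMP response element TGACGTCA, its shorter form TGACG, the AP-1 site TGANTCA and the CArG box, the site of serum response factor. The 4 stretches below are shown because the results turn on Dusp1, Dusp2 and Spry1, and because Dusp5 carries CArG boxes. Motif matches are in capitals, and each sequence reads 5′ to 3′ on the gene's strand.
Dusp1, chr17:26508473-26508722, minus strand: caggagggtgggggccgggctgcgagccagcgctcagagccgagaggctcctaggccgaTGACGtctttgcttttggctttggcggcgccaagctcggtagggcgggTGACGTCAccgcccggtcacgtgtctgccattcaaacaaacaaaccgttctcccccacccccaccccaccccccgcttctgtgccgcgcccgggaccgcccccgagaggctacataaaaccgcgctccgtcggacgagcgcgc
Dusp2, chr2:127335909-127336158, plus strand: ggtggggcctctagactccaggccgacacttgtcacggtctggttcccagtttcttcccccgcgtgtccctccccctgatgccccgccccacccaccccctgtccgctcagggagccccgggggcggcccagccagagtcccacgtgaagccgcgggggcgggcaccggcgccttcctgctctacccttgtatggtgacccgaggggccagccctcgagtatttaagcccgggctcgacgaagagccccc
Spry1, chr3:37639697-37639946, plus strand: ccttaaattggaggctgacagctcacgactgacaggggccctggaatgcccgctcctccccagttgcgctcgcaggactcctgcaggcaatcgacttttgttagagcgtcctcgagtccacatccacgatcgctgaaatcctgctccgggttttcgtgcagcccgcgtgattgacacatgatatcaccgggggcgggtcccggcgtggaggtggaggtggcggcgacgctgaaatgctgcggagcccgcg
Dusp5, chr19:53528895-53529144, plus strand: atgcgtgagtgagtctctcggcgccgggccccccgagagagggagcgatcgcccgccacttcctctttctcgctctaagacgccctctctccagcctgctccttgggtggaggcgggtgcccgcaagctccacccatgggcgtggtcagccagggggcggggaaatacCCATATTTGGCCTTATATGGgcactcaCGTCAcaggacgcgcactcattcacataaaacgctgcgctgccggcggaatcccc

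Dusp1 held 1 full cAMP response element, 143 to 136 bases before its start, which also contains the shorter form on each strand, and a further TGACG 191 to 187 bases before it. Dusp5 held 2 adjacent CArG boxes, 82 to 73 and 72 to 63 bases before its start, and 1 shorter element 55 to 51 bases before it. Spred2 held 1 shorter element. None of the 4 motifs was found in these windows of Dusp2, Dusp6, Spry1, Spry2 or Spred1, and no AP-1 site was found in any of the 8. Of all 32851 such windows of the table, 1.55% held TGACGTCA, 17.8% TGACG, 6.75% TGANTCA and 1.47% a CArG box. These matches describe the sequence and do not show that a site is used. The Dusp1 stretch lies inside the annotated span of the gene, which includes a longer transcript. The ends of the Dusp5 and Spred2 stretches also lie inside the annotated spans, and the Spred2 match is in that part. The Spred1 stretch ends before the annotated span, and the bases that follow it were not found in an annotated transcript of the gene.

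In untreated macrophages the genes spanned a wide range of levels. On the RPKM scale, which divides by gene length and so allows genes to be compared, Dusp1 was highest with 78.0 ± 7.17 (SD, n = 6). Dusp4 followed with 37.7 ± 6.18 RPKM and Spred1 with 32.0 ± 6.48, and the ranges of these 2 genes overlapped. Dusp5 (13.9 ± 5.46 RPKM), Dusp2 (10.4 ± 2.97), Spry2 (8.24 ± 1.51), Spred2 (7.28 ± 0.98) and Dusp6 (7.26 ± 2.30) formed a lower group in which each overlapped its neighbours in the order. Spry1 was lowest, at 0.321 ± 0.100 RPKM, and its libraries held 9 to 21 counts each. The lowest Dusp1 library, with 71.6 RPKM, lay above the highest Dusp4 library, with 49.8 RPKM, and no Spred1 library was as low as the highest Dusp5 library (25.9 and 21.6 RPKM).

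Before any treatment, 3 of the 9 genes already differed among the batches by edgeR's quasi-likelihood F test, as did 38.1% of all genes tested. Dusp2 was lowest in batch 1 and highest in batch 3, with log2 differences from batch 1 of 0.40 in batch 2 and 0.86 in batch 3 (edgeR adjusted p = 0.00035). Spred1 was highest in batch 2 by a log2 difference of 0.59 from batch 1 (edgeR adjusted p = 2.24e-05). Dusp6 was highest in batch 1, with log2 differences of -0.69 in batch 2 and -0.70 in batch 3 (edgeR adjusted p = 0.0438). The Dusp6 call was lost without untreated replicate 1, 2, 4 or 5 or mast cell supernatant replicate 1, 3, 4 or 5, with adjusted p up to 0.223. Among these untreated libraries 9 of 10 tested neutrophil markers, 7 of 9 macrophage markers and 3 of 3 tested fibroblast markers also differed by batch. Neutrophil markers summed to 318 and 327 CPM in batch 3, where Dusp2 was highest, and to 93.0 to 130 CPM in the other batches. Fibroblast markers summed to 139 and 145 CPM in batch 2, where Spred1 was highest, and to 8.44 to 16.8 CPM in the others. Their part in the differences was not tested.

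**Figure D1:**
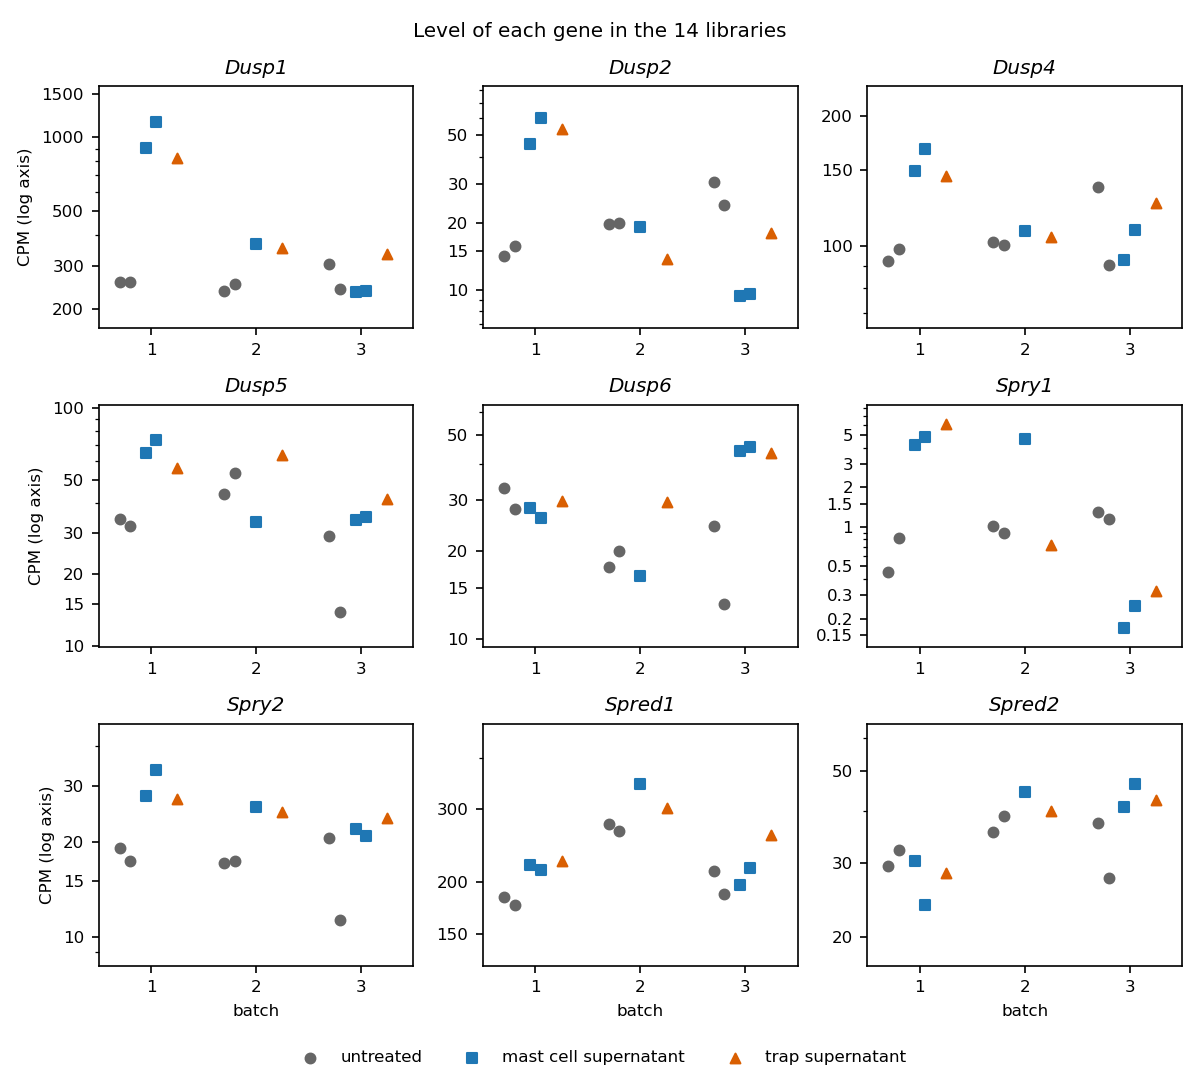
Level of each of the 9 genes in the 14 libraries, in CPM on a log axis, by batch; circles are untreated libraries, squares mast cell supernatant and triangles trap supernatant. In batch 1 the treated libraries of Dusp1, Dusp2 and Spry1 lie far above the untreated ones, whereas in batch 3 the mast cell supernatant libraries of Dusp2 and Spry1 lie below them.

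The first comparison asked which genes responded to mast cell supernatant over all batches, with batch as a term of the model. Spry2, an inhibitor of receptor-driven Ras and ERK signalling, rose, and it was 1 of 9 genes called higher against 2.17% of all genes tested. Its level ran from 11.4 CPM through a median of 17.4 to 20.6 in the 6 untreated libraries. With mast cell supernatant it was 27.8, 25.8, 21.9, 33.7 and 20.8 CPM in replicates 1 to 5. Every treated library stood above every untreated one, and the separation was narrow in batch 3. The log2 fold change was 0.58 ± 0.12 (SE), a 1.5-fold difference (edgeR adjusted p = 0.0104). The call was kept in each of the 14 fits without 1 library. It was lost without the batch term (log2 0.60, adjusted p = 0.121) and in the 9 libraries numbered 1 to 3 with the replicate number as a block (log2 0.40, adjusted p = 0.171). In batches 1 and 2 alone Spry2 kept its call (log2 0.69, adjusted p = 0.000289).

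The other 8 genes did not pass the test over the pooled batches. Their log2 fold changes ran from 0.08 for Dusp2 to 1.35 ± 0.78 for Spry1. All 9 values were positive, with a median of 0.36 beside -0.01 over all genes tested. Spred1 (0.20 ± 0.06, edgeR adjusted p = 0.0919) was called with no filter on low counts, without untreated replicate 3 (adjusted p = 0.0402) without mast cell supernatant replicate 3 (adjusted p = 0.0337) and in batches 1 and 2 alone (log2 0.30, adjusted p = 0.00562). Dusp6 (0.36 ± 0.27) was -0.15 in batches 1 and 2 alone, and neither value passed. Dusp1 (0.79 ± 0.34, edgeR adjusted p = 0.243) had a wide error in the pooled fit, and the next paragraphs give its level in each batch.

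For trap supernatant against untreated, 0 of the 9 genes passed edgeR's test, beside 1.72% of all genes. At an unadjusted p under 0.05 there were 3, namely Spry2, Spred1 and Dusp5. DESeq2 called 2, limma-voom 1 and edgeR without the filter on low counts 2. Spry2 was 27.3, 24.9 and 23.9 CPM in replicates 1 to 3, and all 3 libraries stood above the 6 untreated ones. Its log2 fold change was 0.56 ± 0.14 (edgeR adjusted p = 0.0538, DESeq2 adjusted p = 0.00792). Without untreated replicate 3 edgeR called Spry2 and Spred1 (adjusted p = 0.00199 and 0.0319), and in batches 1 and 2 alone it called Spry2 (log2 0.56, adjusted p = 0.00662). The median of the 9 log2 fold changes was 0.56, beside -0.01 over all genes.

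Trap and mast cell supernatant did not separate for any of the 9 genes in the pooled fit. edgeR called 0 of them and 0% of all genes, 0 of the 9 had an unadjusted p under 0.05, and DESeq2 called 0 of the 9 and 11 genes in all. The log2 differences, trap minus mast, ran from -0.40 ± 0.85 for Spry1 to 0.22 ± 0.32 for Dusp6, so differences of that size were within the error. Both responses were measured against the same untreated libraries, and their values are given side by side only.

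Spry2 was also the only one of the 9 whose libraries with either supernatant stood above every untreated library of their batch in all 3 batches, as did 2.39% of all genes. For trap supernatant alone this held for 4 genes (Dusp1, Dusp5, Spry2 and Spred1), beside 7.87% of all genes, and for mast cell supernatant alone for Spry2, beside 4.07%. Dusp1, Dusp2, Dusp4, Dusp6 and Spry1 responded unevenly from batch to batch, by the test of batch 1 against batch 3 given below. Spred1, like Spry2, had positive values in every batch. With all libraries, Spry2, Spred1, Dusp5 and Spred2 did not pass that test.

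Dusp1 (ENSMUSG00000024190, GRCm38 chr17:26505590-26562128, minus strand) encodes the nuclear phosphatase also known as MKP-1, which acts chiefly on p38 and JNK. In batch 1 it was 257.5 and 256.8 CPM in the untreated libraries, 907.9 and 1157 with mast cell supernatant and 827.1 with trap supernatant. The batch 2 levels were 237.0 and 253.0 untreated, 366.8 with mast cell supernatant and 353.9 with trap supernatant. Those of batch 3 were 303.4 and 241.0 untreated, 233.1 and 236.0 with mast cell supernatant and 333.9 with trap supernatant. The treated libraries thus stood far above the untreated ones in batch 1 and above them in batch 2, and in batch 3 the mast cell supernatant libraries were the lowest and the trap supernatant library the highest of their batch. The untreated level ran from 237.0 to 303.4 CPM and did not pass the test among batches (edgeR adjusted p = 0.547).

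Tested within batches, in a model with a mean for each group in each batch, Dusp1 rose in batch 1 with mast cell supernatant by a log2 fold change of 2.01 ± 0.12 (4.01-fold, edgeR adjusted p = 1.37e-07) and with trap supernatant by 1.69 ± 0.13 (3.22-fold, edgeR adjusted p = 3.87e-06). In batch 2 it rose with mast cell supernatant by 0.58 ± 0.14 (edgeR adjusted p = 0.0327), a call lost in 6 of the 13 fits that left out 1 library (untreated replicate 1, 2, 4 or 5 or mast cell supernatant replicate 3 or 5, adjusted p up to 0.197), and had 0.53 ± 0.14 with trap supernatant (edgeR adjusted p = 0.0952). In batch 3 the values were -0.21 ± 0.12 with mast cell supernatant and 0.29 ± 0.14 with trap supernatant, and neither passed. They depended on the untreated libraries, of which replicate 3 was high. The mast cell supernatant value was -0.03 (adjusted p = 0.867) without untreated replicate 3 and -0.37 (adjusted p = 0.0223) without replicate 6. The trap supernatant value was 0.47 (adjusted p = 0.0135) without replicate 3 and 0.14 (adjusted p = 0.69) without replicate 6. Trap supernatant has 1 library in each batch, which these fits assume to vary like the others.

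Dusp2 (ENSMUSG00000027368, chr2:127336159-127338376, plus strand) encodes PAC-1, a nuclear phosphatase of activated leukocytes. In batch 1 it was 14.2 and 15.8 CPM untreated, 45.5 and 59.6 with mast cell supernatant and 53.3 with trap supernatant. Batch 2 libraries had 19.7 and 20.1 untreated, 19.3 with mast cell supernatant and 13.8 with trap supernatant. Batch 3 libraries had 30.6 and 24.1 untreated, 9.35 and 9.53 with mast cell supernatant and 18.1 with trap supernatant. Treated libraries were above the untreated ones in batch 1 and below them in batches 2 and 3. In batch 2, where each supernatant has 1 library, neither difference passed in the fit of all 14 libraries. The log2 fold changes there were -0.05 ± 0.17 with mast cell supernatant and -0.53 ± 0.18 with trap supernatant.

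In batch 1 Dusp2 rose by a log2 fold change of 1.80 ± 0.14 with mast cell supernatant (3.48-fold, edgeR adjusted p = 6.37e-08) and by 1.82 ± 0.16 with trap supernatant (3.54-fold, edgeR adjusted p = 5.23e-07). With mast cell supernatant in batch 3 it fell by 1.53 ± 0.16 on the log2 scale (edgeR adjusted p = 3.34e-06). That value was -1.35 without untreated replicate 3 and -1.70 without untreated replicate 6, and both kept the call. With trap supernatant the batch 3 value was -0.60 ± 0.18 (edgeR adjusted p = 0.0823), and it passed without untreated replicate 6 (-0.76, adjusted p = 0.0065). Over the pooled batches the log2 fold change with mast cell supernatant was 0.08 ± 0.52.

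Dusp4 (ENSMUSG00000031530, chr8:34807297-34819894, plus strand) encodes MKP-2, another inducible nuclear phosphatase. In batch 1 it was 92.1 and 98.1 CPM untreated, 148.9 and 167.2 with mast cell supernatant and 145.3 with trap supernatant. Batch 2 libraries had 102.3 and 100.5 untreated, 108.0 with mast cell supernatant and 104.9 with trap supernatant. The treated ones were narrowly above, and neither difference passed. Batch 3 libraries had 136.5 and 90.3 untreated, 92.6 and 108.6 with mast cell supernatant and 125.3 with trap supernatant, so the groups overlapped. It rose in batch 1 with mast cell supernatant by 0.73 ± 0.17 on the log2 scale (edgeR adjusted p = 0.029). The call was lost without untreated replicate 1 (adjusted p = 0.172) or 4 (0.113) and without mast cell supernatant replicate 1 (0.0532) or 4 (0.183), the 4 libraries it rests on. With trap supernatant the value was 0.61 ± 0.20 (edgeR adjusted p = 0.146). In batch 3 Dusp4 changed sign with the untreated library kept: with mast cell supernatant it was 0.16 (adjusted p = 0.245) without replicate 3 and -0.44 (adjusted p = 0.00167) without replicate 6, and with trap supernatant 0.47 (adjusted p = 0.00456) and -0.12 (adjusted p = 0.692).

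Dusp5 (ENSMUSG00000034765, chr19:53529109-53542431, plus strand) encodes a nuclear phosphatase specific for ERK. In batch 1 it was 34.3 and 31.9 CPM untreated, 65.0 and 74.0 with mast cell supernatant and 56.1 with trap supernatant, and treated libraries stood above untreated ones. The batch 2 levels were 43.6 and 53.5 untreated, 33.3 with mast cell supernatant and 63.4 with trap supernatant. The batch 3 levels were 28.9 and 13.8 untreated, 33.8 and 34.7 with mast cell supernatant and 41.4 with trap supernatant. Treated libraries were thus above the untreated ones in batches 1 and 3, while in batch 2 the mast cell supernatant library was below and the trap supernatant library above. No within-batch value of Dusp5 passed the test, the nearest being 1.07 ± 0.29 in batch 1 with mast cell supernatant (edgeR adjusted p = 0.0769). Without untreated replicate 3 or 6 several did, in fits that leave 1 untreated library in batch 3. The batch 3 value with mast cell supernatant was 1.32 without replicate 3 and 0.25 without replicate 6. With trap supernatant it was 1.58 without replicate 3 and 0.52 without replicate 6. An antisense gene overlaps Dusp5 and the strand setting of the counts is not given, so reads of the 2 cannot be told apart. The same holds for Dusp1, whose annotated span overlaps Ergic1 on the opposite strand, and for Spry1 with the unnamed model Gm42922.

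Dusp6 (ENSMUSG00000019960, chr10:99263231-99267489, plus strand), also known as MKP-3, encodes the cytoplasmic phosphatase that holds and inactivates ERK, and its transcript is widely used as a readout of ERK activity. It showed the opposite order of batches. In batch 1 it was 33.0 and 28.0 CPM untreated, 28.1 and 26.1 with mast cell supernatant and 29.7 with trap supernatant. Levels in batch 2 were 17.8 and 20.04 untreated, 16.5 with mast cell supernatant and 29.5 with trap supernatant. Levels in batch 3 were 24.5 and 13.2 untreated, 44.0 and 45.4 with mast cell supernatant and 43.6 with trap supernatant. The 3 treated libraries of batch 3 were close together and above every other library of the series.

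In batch 3 Dusp6 rose by 1.25 ± 0.23 on the log2 scale with mast cell supernatant (2.38-fold, edgeR adjusted p = 0.00603) and by 1.22 ± 0.27 with trap supernatant (2.32-fold, edgeR adjusted p = 0.0416). The mast cell supernatant value was 1.77 without untreated replicate 3 and 0.87 without replicate 6, and the call was kept in every fit without 1 library. The trap supernatant value was 1.72 and 0.83 in the same fits, both called, and its call was lost without untreated replicate 2 or 5 or mast cell supernatant replicate 1, 3, 4 or 5, with adjusted p up to 0.0854. In batches 1 and 2 no Dusp6 value passed.

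Spry1 (ENSMUSG00000037211, chr3:37639947-37644598, plus strand), which like Spry2 restrains Ras and ERK signalling, had the largest single fold change of the 9 genes and the fewest counts. In batch 1 it was 0.455 and 0.815 CPM untreated (9 and 18 counts), 4.21 and 4.82 with mast cell supernatant (54 and 51 counts) and 6.05 with trap supernatant (80 counts). In batch 2 it was 1.01 and 0.892 untreated (15 and 13 counts), 4.69 with mast cell supernatant (82 counts) and 0.727 with trap supernatant (13 counts). In batch 3 it was 1.29 and 1.14 untreated (21 and 19 counts), 0.17 and 0.249 with mast cell supernatant (2 and 3 counts) and 0.322 with trap supernatant (4 counts). Treated libraries were above untreated ones in batch 1 and below them in batch 3, and in batch 2 the mast cell supernatant library was above and the trap supernatant library below.

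In batch 1 Spry1 rose by 2.79 ± 0.32 on the log2 scale with mast cell supernatant (6.92-fold, edgeR adjusted p = 8.11e-06) and by 3.22 ± 0.35 with trap supernatant (9.31-fold, edgeR adjusted p = 6.35e-06). In batch 2 it rose with mast cell supernatant by 2.29 ± 0.35 (edgeR adjusted p = 0.000334). With trap supernatant the batch 2 value was -0.39 ± 0.49, and the gap between the 2 supernatants in that batch was not tested. In batch 3 with mast cell supernatant it fell by 2.49 ± 0.55 (edgeR adjusted p = 0.00487), a call lost without mast cell supernatant replicate 3 (adjusted p = 0.0698) and kept without untreated replicate 3 (-2.39) or 6 (-2.58). With trap supernatant it was -1.89 ± 0.63 there (edgeR adjusted p = 0.128).

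Spry2 (ENSMUSG00000022114, chr14:105891947-105896819, minus strand) had positive values in every batch. Its within-batch log2 fold changes were 0.75 ± 0.20, 0.58 ± 0.25 and 0.42 ± 0.22 with mast cell supernatant in batches 1, 2 and 3. With trap supernatant they were 0.58 ± 0.25, 0.53 ± 0.25 and 0.58 ± 0.26. Only the batch 1 value with mast cell supernatant passed (edgeR adjusted p = 0.0455), and it was lost without untreated replicate 1, 2, 4 or 5 or mast cell supernatant replicate 1, 3, 4 or 5 (adjusted p up to 0.316). In batch 3 the size of the Spry2 difference with mast cell supernatant depended on the 2 untreated libraries, being 0.92 (called) without replicate 3 and 0.05 without replicate 6. With trap supernatant it was 1.07 (called) and 0.21 in the same fits.

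The Spred proteins bind neurofibromin and bring it to Ras at the membrane. Spred1 (ENSMUSG00000027351, chr2:117121374-117182279, plus strand) was 184.3 and 175.8 CPM untreated in batch 1, 220.0 and 213.6 with mast cell supernatant and 225.5 with trap supernatant. Levels in batch 2 were 276.6 and 266.6 untreated, 345.4 with mast cell supernatant and 301.8 with trap supernatant. Levels in batch 3 were 212.7 and 187.6 untreated, 196.6 and 216.2 with mast cell supernatant and 260.8 with trap supernatant. Differences were small and mostly upward, with overlap of the groups only for mast cell supernatant in batch 3.

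Spred1 rose with mast cell supernatant by 0.27 ± 0.08 in batch 1 (edgeR adjusted p = 0.0391) and 0.35 ± 0.09 in batch 2 (edgeR adjusted p = 0.0431), and with trap supernatant by 0.38 ± 0.09 in batch 3 (edgeR adjusted p = 0.0273), all on the log2 scale. Both calls with mast cell supernatant were lost without untreated replicate 1, 2, 4 or 5 or mast cell supernatant replicate 1 or 4, with adjusted p up to 0.306 in batch 1 and 0.297 in batch 2, and DESeq2 put the batch 2 value at an adjusted p of 0.0524. The call with trap supernatant was lost without untreated replicate 1, 2, 4, 5 or 6 (adjusted p up to 0.0749). Spred2 (ENSMUSG00000045671, chr11:19924375-20024026, plus strand) did not pass in any comparison. It was 23.8 to 46.5 CPM over the 14 libraries, and its nearest value was 0.43 ± 0.14 in batch 3 with mast cell supernatant (edgeR adjusted p = 0.0616). Without untreated replicate 3 the batch 3 values of Spred2 passed, at 0.67 with mast cell supernatant and 0.62 with trap supernatant, and without replicate 6 they were 0.22 and 0.18 and did not.

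**Figure D2:**
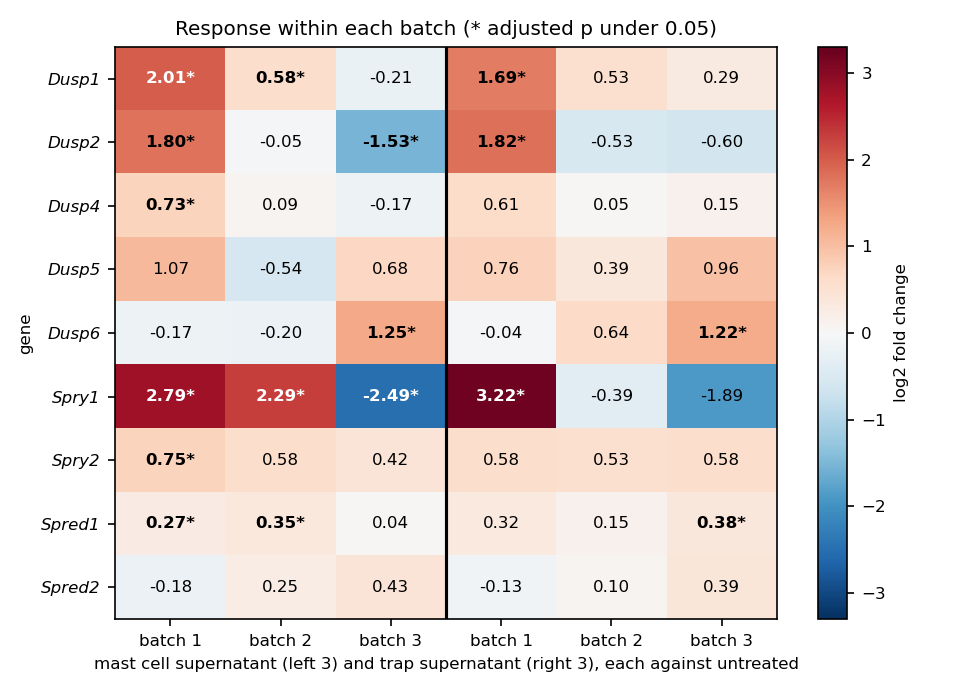
Log2 fold change of each gene against untreated within each batch, for mast cell supernatant (left 3 columns) and trap supernatant (right 3 columns), with an asterisk where the edgeR adjusted p was under 0.05; red is higher and blue lower than untreated. Dusp1, Dusp2 and Spry1 are red in both batch 1 columns, and Dusp6 has its largest values in the batch 3 columns.

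Counted by batch, 6 of the 9 genes rose with mast cell supernatant in batch 1, beside 5.67% of all genes called higher. In batch 2, 3 rose, beside 2.4%. In batch 3, 1 rose and 2 fell, beside 3.95% and 8.18% of all genes. With trap supernatant 3 rose in batch 1, beside 4.32%, and 2 rose in batch 3, beside 1.87%. In batch 2 edgeR called 0 of the 9 with trap supernatant, beside 1.82% of all genes, while 3 had an unadjusted p under 0.05 and DESeq2 called 1. The median log2 fold change of the 9 with mast cell supernatant was 0.75 in batch 1, and in batches 2 and 3 it was 0.25 and 0.04, beside -0.01, -0.01 and 0.00 over all genes.

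These counts depended on the untreated libraries of batch 3, also for the other batches, since all libraries share 1 estimate of the spread. Without untreated replicate 3 or 6 the batch 1 counts were 7 higher with either supernatant. For mast cell supernatant in batch 3 they were 4 higher and 2 lower without replicate 3, and 1 higher and 4 lower without replicate 6. For trap supernatant in batch 3, 7 were higher without replicate 3, and 2 higher and 1 lower without replicate 6. Leaving out any of the 4 batch 1 libraries of the untreated and mast cell supernatant groups left 3 of the 6 batch 1 calls, those of Dusp1, Dusp2 and Spry1. In batches 1 and 2 alone, 7 genes were higher in batch 1 with either supernatant, and in batch 2, 4 were higher and 1 lower with either.

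Whether the responses differed between batches was tested as the log2 fold change in batch 1 minus that in batch 3. With mast cell supernatant 4 of the 9 genes were higher in batch 1, beside 7.86% of all genes, and 1 was lower, beside 3.37%. The differences were 2.22 ± 0.16 for Dusp1 (edgeR adjusted p = 1.11e-06), 3.34 ± 0.21 for Dusp2 (5.03e-09), 5.28 ± 0.61 for Spry1 (8.04e-06), 0.90 ± 0.24 for Dusp4 (0.0443) and -1.42 ± 0.32 for Dusp6 (0.0196). That of Dusp4 was lost without untreated replicate 1, 2, 4 or 5 or mast cell supernatant replicate 1, 3, 4 or 5 (adjusted p up to 0.151). That of Dusp6 was lost without untreated replicate 1 or mast cell supernatant replicate 3, 4 or 5 (adjusted p up to 0.0751). Dusp5 and Spry2 passed without untreated replicate 6 (0.82 and 0.69) and had the other sign without replicate 3 (-0.24 and -0.16). Spred1 passed without replicate 6 (0.31, adjusted p = 0.0462) and Spred2 without replicate 3 (-0.84).

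With trap supernatant 3 genes were higher in batch 1, beside 3.5% of all genes. The differences were 1.39 ± 0.20 for Dusp1 (edgeR adjusted p = 0.000939), 2.42 ± 0.24 for Dusp2 (4.84e-06) and 5.11 ± 0.68 for Spry1 (0.000103). The 3 genes kept these calls in every alternative. For Dusp6 the difference was -1.25 ± 0.39 (edgeR adjusted p = 0.14), and it passed without untreated replicate 3 (-1.74) or 6 (-0.87). Without replicate 3, Dusp5 (-0.80) and Spred2 (-0.72) passed as well, and without replicate 6 Dusp4 (0.73) did. For Spry2 it was 0.33 ± 0.30 with mast cell supernatant and 0.00 ± 0.34 with trap supernatant, and neither passed.

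Batches 1 and 3 also differ in Lyz2 and in the neutrophil markers, so the batch 1 response was set against that in batch 2, where Lyz2 was present. For mast cell supernatant 2 of the 9 genes differed, Dusp1 by 1.42 (edgeR adjusted p = 0.00161) and Dusp2 by 1.85 (0.000158). The differences of Spry1 (0.50, adjusted p = 0.806), Dusp4 (0.64, 0.439) and Dusp6 (0.03, 0.992) did not pass, so their calls against batch 3 were not found against batch 2. With trap supernatant Dusp1 (1.16, adjusted p = 0.00597), Dusp2 (2.36, 1.67e-05) and Spry1 (3.61, 0.00168) differed.

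**Figure D3:**
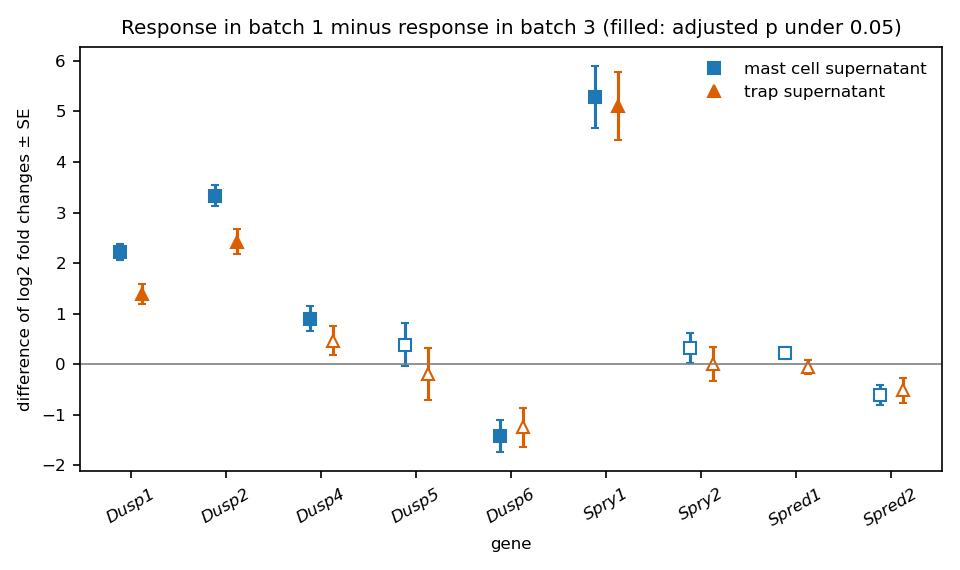
Log2 fold change in batch 1 minus that in batch 3 for each gene, with SE bars; squares are mast cell supernatant, triangles trap supernatant, and filled symbols have an edgeR adjusted p under 0.05. Spry1 is highest at 5.28 and 5.11, Dusp1 and Dusp2 are above 0 with both supernatants, and Dusp6 is below 0.

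The other MAP kinase phosphatases listed (Dusp7, Dusp8, Dusp9, Dusp10 and Dusp16) were all tested. Over the pooled batches with mast cell supernatant 3 of the 5 were called, as were 625 of the 13061 genes tested. The log2 fold changes were 1.02 ± 0.23 for Dusp10, 0.80 ± 0.21 for Dusp8 and -0.56 ± 0.12 for Dusp9. All 3 calls were lost without the batch term. In batch 2 with mast cell supernatant 1 of the 5 rose, Dusp8 by 1.27 ± 0.18, beside 2.4% of all genes. In batch 1 with mast cell supernatant 3 of the 5 rose, beside 5.67% of all genes: Dusp10, which acts on p38 and JNK, by 1.73 ± 0.22 on the log2 scale, Dusp8 by 1.21 ± 0.13 and Dusp16 by 0.87 ± 0.11. The same 3 rose with trap supernatant in batch 1, by 1.49 ± 0.27, 1.30 ± 0.16 and 0.68 ± 0.13, the Dusp16 call being lost without untreated replicate 4 (adjusted p = 0.0615). In batch 3 with mast cell supernatant edgeR and DESeq2 each called 0 of the 5, and 3 had an unadjusted p under 0.05. Dusp8 rose there by 0.68 with trap supernatant, a call lost by DESeq2 (adjusted p = 0.182) and without untreated replicate 1, 2, 4 or 5 (adjusted p up to 0.0621). The list's median in batch 1 with mast cell supernatant was 0.87, beside -0.01 over all genes. Of the 3 other Sprouty family genes listed (Spry3, Spry4 and Spred3), 1 passed the count filter. It was not called in any comparison with a supernatant. Among the untreated libraries edgeR called it as differing between batches, as were 38.1% of all genes, and DESeq2 did not.

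Of 20 genes listed for the ERK cascade, edgeR and DESeq2 called 0 in batch 1 with either supernatant, and 2 had an unadjusted p under 0.05 with each. That list does not hold Map3k8, which is given below. In batch 3 with mast cell supernatant 3 rose and 3 fell, beside 3.95% and 8.18% of all genes. Rasa1, a Ras GTPase-activating protein, rose by 0.60 ± 0.11 on the log2 scale and kept its call in every alternative. Hras, a Ras GTPase (0.39), lost its call without untreated replicate 1, 4 or 6 or mast cell supernatant replicate 3, with adjusted p up to 0.274. Sos2, an exchange factor that activates Ras (-0.36), lost it without untreated replicate 6 (adjusted p = 0.0559) or mast cell supernatant replicate 3 (adjusted p = 0.111). Of 15 genes of the p38 and JNK cascades, 2 rose in batch 1 with mast cell supernatant, beside 5.67% of all genes. They were Map3k8, the kinase TPL2 that activates the ERK cascade in macrophages, by 0.85 ± 0.12, and Mapkapk2, a kinase downstream of p38, by 0.61 ± 0.08. In batch 3, 1 rose and 4 fell, beside 3.95% and 8.18% of all genes, among the latter Mapkapk2 (log2 fold change -0.63) and Map2k3, an activator of p38 (-0.61).

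Of 12 genes known as transcriptional outputs of ERK, 11 were tested and 6 rose in batch 1 with mast cell supernatant, beside 5.67% of all genes. Ier3, an immediate-early gene, rose by 2.93 ± 0.15 on the log2 scale, Egr1, an immediate-early transcription factor, by 2.14 ± 0.10 and Phlda1 by 1.44 ± 0.18. Fos rose there by 0.33 ± 0.07. In batch 2 with mast cell supernatant 3 of the 11 were called, as were 526 of the 13061 genes tested. Their log2 fold changes were -1.42 ± 0.09 for Fos, 1.36 ± 0.18 for Ier3 and 1.10 ± 0.16 for Egr1. With mast cell supernatant in batch 3, 1 rose and 3 fell, beside 3.95% and 8.18%: Etv5 rose by 1.13 ± 0.19, Egr1 fell by 1.24 ± 0.18 and Epha4 fell by 2.22 ± 0.47, the last call being lost without mast cell supernatant replicate 5 (adjusted p = 0.0659). The difference between batch 1 and batch 3 with mast cell supernatant was 3.82 ± 0.23 for Ier3 (edgeR adjusted p = 5.88e-09) and 3.38 ± 0.20 for Egr1 (2.3e-09). Etv5, an ERK-induced transcription factor of the ETS family named for this comparison after its values were seen, had -1.03 ± 0.27 (edgeR adjusted p = 0.044). In that difference 5 of the 11 were higher and 1, Etv5, was lower, beside 7.86% and 3.37% of all genes. Egr1 thus had the sign of Dusp1, Dusp2 and Spry1, and Etv5 that of Dusp6. For Etv5 the sign was known when the gene was named, so the match is only a description.

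Within batches the 9 genes formed no single pattern. Correlations of log2 CPM over the 14 libraries, after each batch mean was subtracted, are given as a description, since the libraries share untreated samples, batches and depth. Dusp1 and Dusp4 had r = 0.895, Dusp2 and Spry1 r = 0.875, Dusp5 and Spry2 r = 0.797, and Spry2 and Spred1 r = 0.796. Dusp2 and Dusp4 had r = 0.782, Dusp1 and Dusp2 r = 0.775, and Dusp6 and Spred2 r = 0.743. Dusp6 ran against Spry1 (r = -0.591) and Dusp2 (r = -0.53). The genes most like Dusp1 among 9769 compared were Il1b (r = 0.984) and Thbs1 (r = 0.974). Those most like Dusp2 were Gadd45b (r = 0.984) and Kdm6b (r = 0.983), those most like Spry1 were Abl2 (r = 0.976) and Osm (r = 0.973), and those most like Dusp6 were Ptpn7 (r = 0.958) and Cyth4 (r = 0.950).

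Transcripts of mast cells were present in every treated library, and their part in the results was not tested. Summed over 13 mast cell markers, the level was 7.11 to 9.36 CPM in the 6 untreated libraries, where Mcpt4, Tpsb2, Tpsab1 and Mrgprb2 had 0 counts. With mast cell supernatant it was 85.9 and 114 CPM in batch 1, 1467 in batch 2 and 301 and 240 in batch 3. With trap supernatant it was 88.6, 783 and 2101 CPM in batches 1, 2 and 3. Batch 1, where Dusp1 and Dusp2 were highest, had the lowest mast cell marker levels of the treated libraries, and the trap supernatant library with 2101 CPM had Dusp1 at 333.9 CPM and Spry1 at 0.322 CPM. The library next in marker level, mast cell supernatant replicate 2 with 1467 CPM, had Spry1 at 4.69 CPM, above the untreated libraries of its batch, and the highest Spred1 level of all, 345.4 CPM. Its batch was also the highest in Spred1 before treatment, with 276.6 and 266.6 CPM in the untreated libraries.

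Pooled over batches, levels of the markers of other cell types overlapped between the groups, while they differed between batches as given above. Over 11 neutrophil markers, the summed level was 93.0 to 327 CPM in untreated libraries, 74.0 to 311 CPM after mast cell supernatant and 78.4 to 299 CPM after trap supernatant. Within each batch these sums did not overlap between untreated and treated libraries. In batch 1 they were 129 and 130 CPM untreated, 169 and 191 with mast cell supernatant and 143 with trap supernatant. In batch 2 they were 93.0 and 111 untreated, then 74.0 and 78.4. Batch 3 had 318 and 327 untreated, 311 and 282 with mast cell supernatant and 299 with trap supernatant. In batch 1 with mast cell supernatant, beside the rise of Dusp1 and Dusp2, 4 of 10 tested neutrophil markers rose, S100a9 by 0.94 ± 0.13 on the log2 scale, and with trap supernatant edgeR and DESeq2 called 0 of 10 in that batch, with 2 at an unadjusted p under 0.05. Ly6g had 14, 3 and 0 counts over the untreated, mast cell supernatant and trap supernatant libraries. The 6 fibroblast markers summed to 8.44 to 145 CPM untreated and 8.54 to 163 over both treated groups. Treated libraries were above the untreated ones of their batch in batches 1 and 2, and within their range in batch 3. Of the 9 macrophage markers, 1 was lower with mast cell supernatant over the pooled batches, Mertk by a log2 fold change of -0.90 ± 0.15, and it was also lower with trap supernatant (-0.83 ± 0.17). The part of any of these transcripts in the results was not tested.

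**Figure D4:**
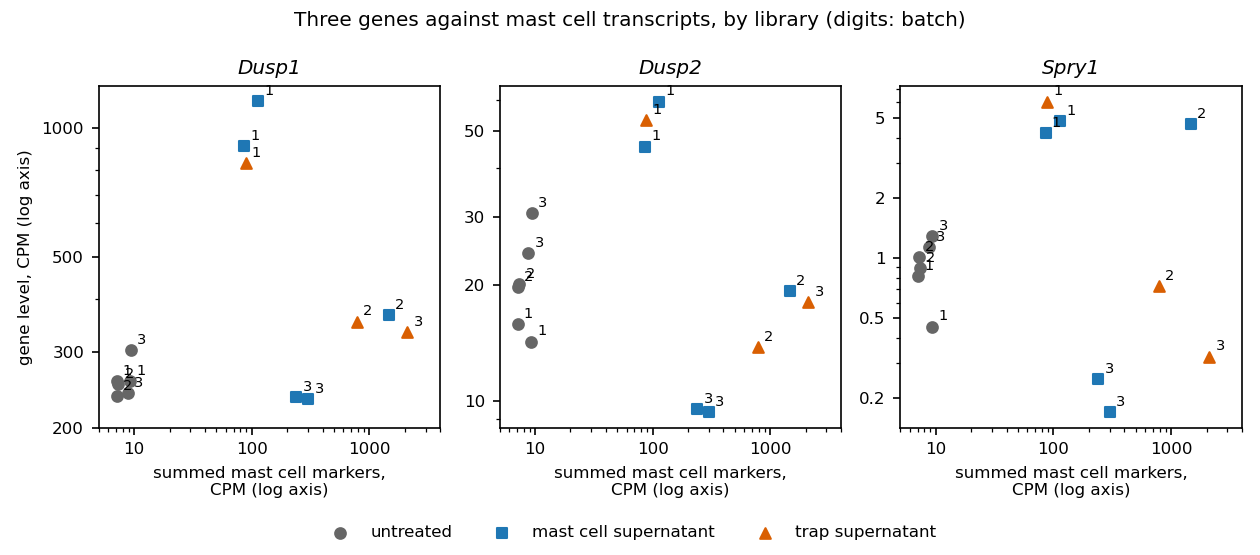
Level of Dusp1, Dusp2 and Spry1 (vertical, CPM, log axis) against the summed level of 13 mast cell markers (horizontal, CPM, log axis) in the 14 libraries; digits give the batch, circles are untreated, squares mast cell supernatant and triangles trap supernatant. The batch 1 treated libraries, at 85.9 to 114 CPM of markers, are the highest in Dusp1 and Dusp2, and the library at 2101 CPM is not; the batch 2 library at 1467 CPM is within their range in Spry1.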

How the data were processed

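Illumina stranded mRNA libraries were prepared from mouse bone marrow-derived macrophages after RNA isolation on Qiagen RNeasy Plus Micro columns, per the labels' protocols. The authors deposited raw read counts per gene, made with featureCounts 2.0.0 on GRCm38, per the submitters' processing notes; which aligner, annotation and strand setting were used is not given in the sources used here. Symbols and coordinates were taken by identifier from GENCODE mouse release 21 and a gene-name table, and 47310 of 47937 genes had a symbol.

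The analysis used edgeR 4.0.16 in R 4.3.3: filterByExpr by group (13061 genes kept), TMM scaling, quasi-likelihood F test with robust dispersion, Benjamini-Hochberg adjustment over all genes tested and a false discovery rate of 0.05. The pooled comparisons used group and batch over 14 libraries (9 residual degrees of freedom). Within-batch values and their differences used 9 means of group by batch (5 residual degrees of freedom). SE is that implied by F. CPM values are TMM-normalised, and RPKM divides them by the summed exon length.

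The 9 genes, the gene lists and the tests were chosen with earlier results of these data known. Named genes are the 9, up to 3 genes per list and comparison with the largest change among those called, and the 2 genes most like each member (mean of at least 5 CPM, log2 CPM with a prior count of 1). Alternatives were DESeq2 1.42.0, limma-voom 3.58.1, DESeq2 size factors in edgeR, no filter, no batch term, a replicate block and leaving out each library. The tests were tried on simulated data. 2 genes of the ERK cascade are not reported here. After the data were seen, fits of batches 1 and 2 alone and the difference of batch 1 from batch 2 were added. Replicates 1 to 3 carry batches 1 to 3 in each group, so equal numbers share a batch. With group means subtracted, the 9 same-number pairs correlated at 0.293 to 0.718 and pairs with different numbers at -0.556 to 0.168. No pair of libraries was identical, and the chi-square per degree of freedom over genes with at least 20 counts in a pair was at least 1.82 in the 28 pairs within groups. Total counts of 11729073 to 22720419 per library set the precision of low genes such as Spry1.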

Additional observations from a re-analysis of the deposited data

Results flagged for a closer look

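In batch 1 minus batch 3, the log2 responses differed by edgeR's test of the difference itself with mast cell supernatant for Dusp1 (2.22, adjusted p = 1.11e-06), Dusp2 (3.34, 5.03e-09), Dusp4 (0.90, 0.0443), Dusp6 (-1.42, 0.0196) and Spry1 (5.28, 8.04e-06). With trap supernatant they differed for Dusp1 (1.39, adjusted p = 0.000939), Dusp2 (2.42, 4.84e-06) and Spry1 (5.11, 0.000103).

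A library stood apart from its group in 3 of the 18 groups of 5 or 6 libraries examined, by a gap beyond Dixon's critical value. Untreated replicate 3 was high in Dusp1 (303.4 CPM) and in Dusp4 (136.5 CPM), and mast cell supernatant replicate 2 was high in Spred1 (345.4 CPM). For libraries of a single population chance gives about 1 in 20 groups. These groups span all 3 batches, so that rate cannot be applied to them. Mast cell supernatant replicate 2 is the only library of its group in batch 2, where Spred1 was also highest in untreated libraries.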

How the results depend on the processing

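Of 108 results of the 9 genes, 29 passed edgeR's test, and 16 of these kept their call and direction in every alternative run. Among 1863 values under alternatives, 1634 kept direction and side of the threshold, 67 lost the call, 105 gained it and 57 changed sign. Of the 57, 1 belonged to a called result, Dusp6 in batch 1 minus batch 3, and their lowest adjusted p was 0.245. Of 59 results of named pathway genes, 31 kept their call in every alternative and 1 changed sign. The pooled mast cell supernatant calls of Dusp8, Dusp9, Dusp10, Mapk14 and Phlda1, and that of Mapk14 with trap supernatant, were lost without the batch term and under the replicate block.

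Over all genes, mast cell supernatant against untreated gave 625 calls, 62 without the batch term and 84 with the replicate block, which is the batch term in the 9 libraries numbered 1 to 3. For trap supernatant the counts were 224, 15 and 36, and 409 by DESeq2. Trap against mast cell supernatant gave 0, and 11 by DESeq2. In batches 1 and 2 alone it gave 1, and mast cell supernatant gave 2377 calls in batch 1 and 1047 in batch 2, trap supernatant 1546 and 581. With batch 2 in place of batch 3, the difference from batch 1 gave 180 calls with mast cell and 378 with trap supernatant. Both of these alternatives were chosen after the data were seen. With no filter on low counts, trap supernatant gave 412 calls against 238 in batch 2 and 907 against 478 in batch 3. The block and the missing batch term each ended the pooled call of Spry2 and changed no other call of the 9 genes in the pooled comparisons.

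Without 1 library at a time, the calls ran from 97 to 280 (trap supernatant, pooled), 0 to 3 (trap against mast cell supernatant), 448 to 2050, 284 to 885 and 811 to 2845 (mast cell supernatant in batches 1, 2 and 3), 389 to 1350, 113 to 465 and 372 to 1661 (trap supernatant in batches 1, 2 and 3), 838 to 2428 and 360 to 1336 (batch 1 minus batch 3 for mast cell and trap supernatant) and 3207 to 6232 (untreated among batches). The high ends came without untreated replicate 3, except for trap against mast cell supernatant, where it came without trap supernatant replicate 2. Trap supernatant in batch 1 minus batch 3 cannot be fitted without trap supernatant replicate 1 or 3, and a batch cannot be fitted without its only treated library.

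Sign changes were as follows. All were of values that had not passed, except Dusp6 and Dusp8 with mast cell supernatant when batch 2 replaced batch 3. Dusp2 with mast cell supernatant was -0.0169 by DESeq2 and -0.0711 with the replicate block. In trap minus mast cell supernatant, Dusp1 was 0.0162 by limma-voom and 0.0665 with the block, Spry2 0.00973 with the block and Dusp2 -0.0143 without the batch term. Spry2 in batch 1 minus batch 3 with trap supernatant was 0.0106 by DESeq2 and 0.00216 with no filter. Without 1 library, Dusp2 ran from -0.27 to 0.33 with mast cell supernatant and from -0.22 to 0.43 with trap supernatant, and Spry1 from -0.78 to 1.64 with trap supernatant. In trap minus mast cell supernatant the ranges were -0.18 to 0.18 for Dusp1, -0.40 to 0.35 for Dusp2, -0.0543 to 0.12 for Dusp4, -0.13 to 0.24 for Dusp5, -2.22 to 0.24 for Spry1, -0.0734 to 0.0414 for Spry2 and -0.12 to 0.0226 for Spred2. In batch 3 with mast cell supernatant they were -0.44 to 0.16 for Dusp4 and -0.0434 to 0.14 for Spred1. With trap supernatant they were -0.15 to 0.0869 for Dusp6 in batch 1 and -0.12 to 0.47 for Dusp4 in batch 3. In batch 1 minus batch 3 they were -0.24 to 0.82 for Dusp5 and -0.16 to 0.69 for Spry2 with mast cell supernatant, and -0.80 to 0.24 for Dusp5, -0.47 to 0.37 for Spry2 and -0.13 to 0.0299 for Spred1 with trap supernatant. In batches 1 and 2 alone, Dusp6 was -0.15 with mast cell and Spred2 -0.00705 with trap supernatant, and trap minus mast cell supernatant was -0.25 for Dusp2, -0.13 for Dusp4 and -0.0525 for Spred1. With batch 2 in place of batch 3, the differences were 0.0313 for Dusp6, -0.0786 for Spred1 and -0.0634 for Dusp8 with mast cell supernatant, and 0.38 for Dusp5, 0.0524 for Spry2 and 0.17 for Spred1 with trap supernatant. The cause was not tested. Counts of 2 to 82 per library limit Spry1.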
